A study of Mus musculus with 8 samples.

Results

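DNA repair genes were followed in 2 sorted populations of adult mouse bone marrow, as 47 genes grouped by the pathway in which their products act. The genes were found by symbol among the 24011 named genes of the deposited table, which held 46 of them. Xrcc2 was not analysed here. Total RNA of C57Bl6 bone marrow was amplified from a few nanograms and hybridised to 1-colour Affymetrix arrays, 4 with Lin+ cells and 4 with HSC-enriched cells. Lin+ cells are a mixture that carries surface markers of mature blood lineages. HSC-enriched cells are a rare gate that concentrates haematopoietic stem cells (HSCs): they lack lineage markers and carry Sca-1 and Kit, which is abbreviated LSK. The sample labels add that they carry CD105 and lack CD48, whereas the design text of the series has CD150 in place of CD105. Both groups were untreated adult cells of the same strain. The labels do not say whether samples came from separate animals or pools, so the spread behind each p-value is that of these samples alone and may be technical.

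DNA is damaged by replication, oxidation and radiation, and cells repair each kind of lesion by a different route. End joining seals broken ends without a template, homologous recombination copies an intact sister strand and therefore works in S and G2 phase, and the Fanconi pathway unhooks crosslinks. Base and nucleotide excision remove small and bulky lesions, mismatch repair corrects replication errors, and checkpoint kinases halt the cell cycle while repair proceeds. HSCs divide rarely and are known to rely on end joining while they are quiescent.

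The labelled populations were checked against marker genes. All 11 measured HSC markers passed as higher in HSC-enriched cells, and their mean level was 9.12 to 9.24 on those arrays against 5.30 to 5.59 on Lin+ arrays (log2). Markers of neutrophils (14 of 15), B cells (10 of 10), erythroid cells (8 of 8), monocytes (9 of 9) and T and NK cells (9 of 9) passed as lower. HSC-enriched replicates 3 and 4 stood apart in the neutrophil markers, at a mean of 8.91 and 8.77. Replicates 1 and 2 were at 6.67 and 6.60, and Lin+ arrays at 11.26 to 11.57. Replicate 3 also stood apart in the B cell markers, at 6.58 against 4.88 to 5.08 on the other HSC-enriched arrays. It was likewise the highest of them in monocyte (6.00 against 5.26 to 5.40) and erythroid markers (6.13 against 5.08 to 5.68). In T and NK cell markers it was at 4.95 against 4.65 to 4.81. Results below that changed without HSC-enriched replicates 3 and 4 are given with and without them. All 19 measured mitosis markers were lower, with a mean of 7.50 to 7.89 on HSC-enriched and 8.84 to 9.04 on Lin+ arrays. In such mixtures, fewer cells of a type and less RNA per cell cannot be told apart.

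Of the 46 measured repair genes, 12 rose in HSC-enriched cells, 8 fell and 26 did not pass (limma, Benjamini-Hochberg adjusted p under 0.05 over all genes). Among all genes tested, 15.5% passed as higher and 12.4% as lower, or 27.8% together, against 43.5% of the repair genes. Repair genes were brighter than most: only Fancc had both group means at or under 5.09, the 95th percentile of olfactory receptor genes, which served as a guide to background, against 10363 of the 24011 genes. Among genes brighter than the median value (5.27) on 4 or more arrays, 49.2% passed, with 27.8% higher and 21.5% lower. Of the 44 repair genes kept by that filter 22 passed, with 13 higher and 9 lower. That filter also keeps a gene through the one group where it is high, as it does Lig4, so these shares are descriptions. Counts by pathway below rest on few genes and are to be read beside the shares of all genes and of these brighter genes. The median difference was 0.19 on the log2 scale (0.02 over all genes), and the median size regardless of direction was 0.35 (0.20 over all genes). Only Xrcc5 was at least 2-fold higher and only Lig4 and Brca1 at least 2-fold lower, where 4.80% and 6.08% of all genes were. The 2 groups of arrays did not overlap for 20 repair genes, against 28.9% of all genes.

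**Figure D1:**
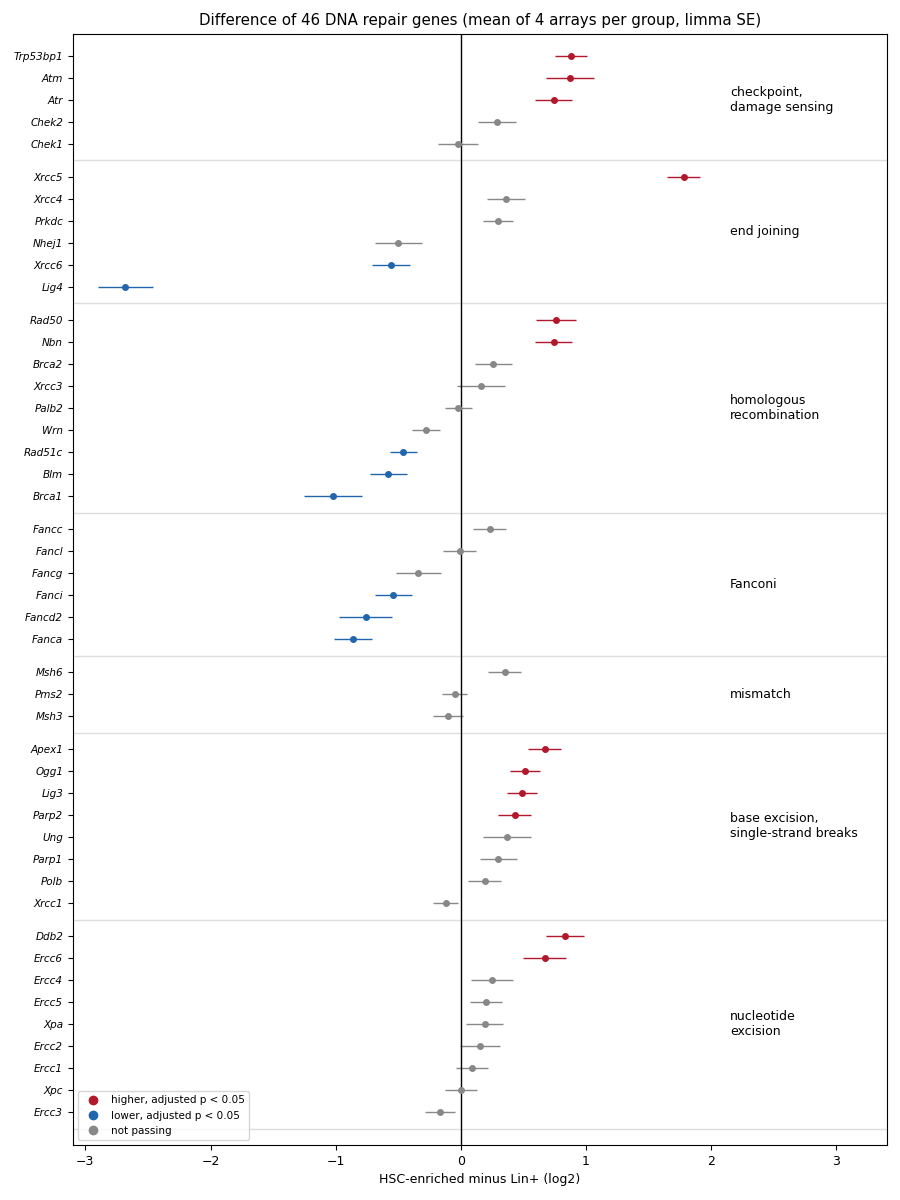
Fitted difference of each of the 46 measured repair genes between HSC-enriched and Lin+ cells (log2, horizontal axis), grouped by pathway, with limma's standard error as bars. Red and blue points passed the test as higher and lower, and grey points did not pass; Xrcc5 (1.78) and Lig4 (-2.68) lie farthest from 0, both in end joining.

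The promoter of Xrcc5, the repair gene with the largest rise, is shown with the motifs found in it, because it holds a short motif that was found for 5 of the 9 repair genes with a promoter that rose. RefSeq promoters (GRCm38.p6) were at hand for 37 of the 46 genes, and the 250 bases before each start were searched on both strands. The letters searched were CACGTG (the E box, bound by Myc and its relatives), CCAAT (bound by NF-Y), TTTGAA (the CHR element of genes used in G2 and mitosis) and TTTCCCGC, TTTGGCGC or TTTCGCGC (E2F type). No motif searched contains another. The Xrcc5 window holds CACGTG starting 198 bases and CCAAT, on the other strand, 169 bases before the start, both in capitals (chr1:72307171-72307420, plus strand).
Xrcc5: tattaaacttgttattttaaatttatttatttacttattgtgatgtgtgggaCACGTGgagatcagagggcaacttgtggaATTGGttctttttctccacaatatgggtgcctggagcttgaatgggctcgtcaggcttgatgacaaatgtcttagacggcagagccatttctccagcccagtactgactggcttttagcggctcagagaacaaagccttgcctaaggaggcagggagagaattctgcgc

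CACGTG was found for 5 of 9 genes that rose, 0 of 7 that fell and 1 of 21 that did not pass, against 6.86% of all 27025 genes with a promoter. The 6 occurrences are shown with 12 bases on either side and the motif in capitals, because these counts rest on them. They lie 21 (Lig3) to 198 (Xrcc5) bases before the start.
Xrcc5 (chr1:72307211-72307240, plus strand): tgatgtgtgggaCACGTGgagatcagaggg
Apex1 (chr14:50924913-50924942, plus strand): gcgctccagaacCACGTGggggcggagccc
Lig3 (chr11:82781076-82781105, plus strand): agaacagcgaccCACGTGgcgaccggaggg
Parp2 (chr14:50807725-50807754, plus strand): acacgcactcagCACGTGgccccgctgatg
Ercc6 (chr14:32513413-32513442, plus strand): ctttggtcaacgCACGTGgcaaacccttgc
Parp1 (chr1:180568830-180568859, plus strand): acctcccaaggaCACGTGctgaagccccgc
Only Parp1, of these 6, did not pass the test. CCAAT was found for 4 of 9 genes that rose, 3 of 7 that fell and 10 of 21 that did not pass (37.5% of all genes). The E2F type letters were in 0 of 9, 1 of 7 (Xrcc6) and 4 of 21 (1.78% of all genes), and TTTGAA in 0, 0 and 1 (18.3% of all genes). These matches are descriptions of letters. CACGTG was singled out among the motifs searched because of its counts. Of the Ercc6 window, 230 bases lay within the annotated span of Ercc6 itself. The windows of Apex1, Lig3, Parp2 and Parp1 each overlapped another gene. Windows without CACGTG also lay within their own gene (Brca2) or overlapped another (Atr). Over all promoters, the start equalled the gene end given by RefSeq in 60.4% of windows. The windows were not matched on base composition. Its median was 55.2% G and C over the 9 windows of genes that rose and 64.8% over the 9 of genes that fell. Lig4 and Rad51c, which fell, had more than 1 window each. The median was 56.4% over the 21 windows of genes that did not pass and 52.4% over all windows.

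Of 5 checkpoint and damage sensing genes, 3 rose and 0 fell, and the median difference was 0.74. Trp53bp1, whose product shields broken ends from resection, was at 6.79, 6.39, 6.50 and 6.59 on Lin+ replicates 1 to 4 and at 7.70, 7.37, 7.33 and 7.40 on HSC-enriched replicates 1 to 4. The groups did not overlap, and the difference was 0.88 ± 0.13 (limma SE, n = 4 per group, adjusted p = 0.00038), or 1.84-fold. Atm, which encodes the kinase activated by broken ends, was 7.08 ± 0.12 against 6.21 ± 0.43 (log2, SD, n = 4), where Lin+ replicate 4 alone, at 6.84, came near the HSC-enriched arrays. Atr, whose kinase responds to stalled forks, was 6.86 ± 0.22 against 6.13 ± 0.23. The effector kinases below them did not pass. Chek1, the target of ATR, was at 7.58, 7.62, 7.44 and 7.54 on Lin+ and at 7.72, 7.64, 7.70 and 7.01 on HSC-enriched arrays, so that replicate 4 was alone in lying below every Lin+ array. Chek2, the target of ATM, differed by 0.29 ± 0.15 (adjusted p = 0.183).

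Of the other 18 measured genes of checkpoint and damage signalling, 4 rose and 6 fell, with a median of -0.01. Wee1, which encodes the kinase that holds cells before mitosis, had the largest rise (0.76), and H2ax, which encodes the histone variant phosphorylated around breaks, the largest fall (-1.08), from 11.78 ± 0.14 to 10.70 ± 0.25.

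End joining held the largest rise and the largest fall, and its parts went different ways. Of 6 genes, Xrcc5 rose, Xrcc6 and Lig4 fell and 3 did not pass, and the median was -0.10. Xrcc5 and Xrcc6 encode Ku80 and Ku70, which form the ring that slides onto broken ends. Xrcc5 was at 6.83, 6.39, 6.58 and 6.93 on Lin+ replicates 1 to 4 and at 8.34, 8.56, 8.44 and 8.52 on HSC-enriched replicates 1 to 4. The groups were apart by 1.41, and the difference was 1.78 ± 0.13 (3.44-fold, adjusted p = 4.8e-06). Xrcc6 was at 8.42, 7.98, 7.71 and 7.95 on Lin+ and at 7.53, 7.39, 7.50 and 7.38 on HSC-enriched arrays. Its groups did not overlap, with Lin+ replicate 3 nearest to the others, and it fell by 0.56 (SE 0.15, adjusted p = 0.014). Without HSC-enriched replicates 3 and 4 that difference was as large but no longer passed (-0.56, adjusted p = 0.078).

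The unequal change of the Ku genes was also taken within each array, a comparison chosen after the values were seen. The Xrcc5 minus Xrcc6 difference was -1.59, -1.60, -1.13 and -1.02 on Lin+ and 0.81, 1.16, 0.94 and 1.13 on HSC-enriched arrays. It changed by 2.35 between the groups, a description with no test, since the pair was chosen for moving apart. The value compares changes, because probe sets of different genes have no common scale.

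Lig4, the ligase of the final step, had the largest fall of all repair genes. It was at 7.66, 7.05, 7.40 and 7.79 on Lin+ and at 5.15, 4.55, 5.17 and 4.33 on HSC-enriched arrays. The groups were apart by 1.88, and the difference was -2.68 ± 0.22 (6.40-fold lower, adjusted p = 9.9e-06). The HSC-enriched mean of 4.80 was under the guide to background, so the size of the fall rests on values near background. The partners of this ligase did not pass. Xrcc4, its scaffold, differed by 0.36 ± 0.15 (adjusted p = 0.113). Nhej1, which encodes the XLF protein that aligns the ends, differed by -0.50 ± 0.19 (adjusted p = 0.075) although its groups did not overlap: Lin+ arrays spanned 6.66 to 6.73 and HSC-enriched arrays 5.71 to 6.64. Without HSC-enriched replicate 2 it passed (-0.64, adjusted p = 0.020). Prkdc, the catalytic subunit of the DNA-dependent protein kinase, was at 6.31, 6.27, 6.21 and 6.69 on Lin+ and at 6.70, 6.73, 6.65 and 6.59 on HSC-enriched arrays. Lin+ replicate 4 lay among the HSC-enriched arrays, and without it Prkdc passed (0.40, adjusted p = 0.016).

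**Figure D2:**
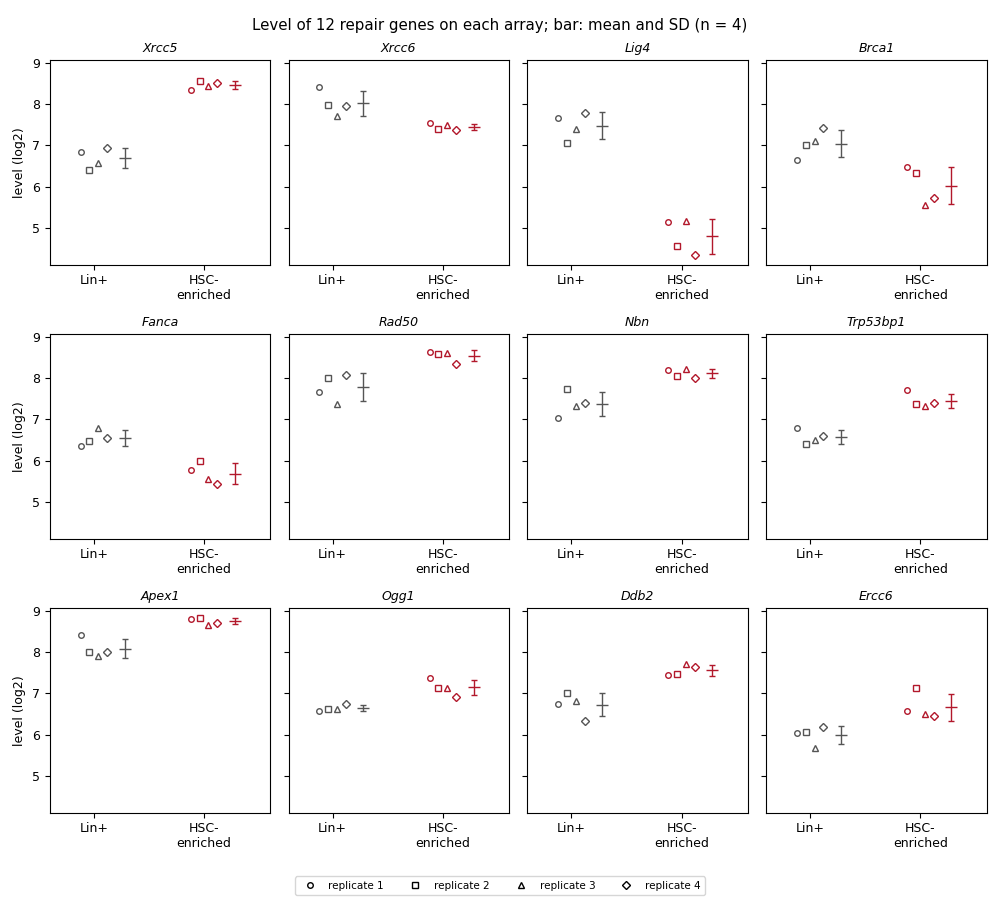
Level of 12 repair genes (log2, vertical axis) on each Lin+ and HSC-enriched array, with symbols for the replicate and a bar for the mean and SD of 4 arrays. In each of these genes the groups do not overlap; the gap is widest for Lig4 and Xrcc5, while Brca1 is lower on HSC-enriched replicates 3 and 4 than on 1 and 2.

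Other genes of end joining also went both ways: of 10 measured, 4 rose and 3 fell. Mad2l2, which encodes a subunit of the shieldin complex that acts after the Trp53bp1 product, had the largest rise (0.81), and Polm, a gap-filling polymerase, the largest fall (-1.83), to an HSC-enriched mean of 4.93 that is under the guide. Further genes whose products act with that of Trp53bp1 are named here because it rose, a choice made after their values were seen. Rif1 rose by 0.74 and Shld2 by 0.59, whereas Shld1 fell by 1.45, to a mean of 4.57.

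Genes of homologous recombination went both ways. Of 9 measured genes, 2 rose (22.2%) and 3 fell (33.3%), with a median of -0.02. Among the genes brighter than the median value, 27.8% rose and 21.5% fell. Rad50 and Nbn, which encode 2 subunits of the MRN complex that tethers and trims broken ends, were the 2 that rose. Rad50 was at 7.67, 8.01, 7.36 and 8.08 on Lin+ and at 8.64, 8.57, 8.60 and 8.34 on HSC-enriched arrays. No array of one group reached the other, and the rise was 0.76 ± 0.16 (1.69-fold, adjusted p = 0.0050). Nbn rose likewise, by 0.74 ± 0.15 (adjusted p = 0.0034), from 7.37 ± 0.29 to 8.11 ± 0.11. Mre11a, the nuclease of the same complex, named after its value was seen, did not pass (0.21, adjusted p = 0.302).

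Brca1, which helps load the recombinase, fell. It was at 6.64, 7.00, 7.10 and 7.43 on Lin+ and at 6.48, 6.33, 5.56 and 5.72 on HSC-enriched arrays. The gap between the groups was only 0.16 between Lin+ replicate 1 and HSC-enriched replicate 1, and the difference was -1.02 ± 0.23 (adjusted p = 0.0071). Without HSC-enriched replicates 3 and 4 it was -0.64 and did not pass (adjusted p = 0.061). Blm, a helicase gene, and Rad51c, a recombinase paralogue gene, fell by 0.58 and 0.46, and without the same 2 arrays the differences were -0.44 and -0.43 and neither passed (adjusted p = 0.119 and 0.077). Those arrays carried more neutrophil transcripts, as given above, and the part of these in the differences was not tested.

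The other 4 genes of recombination did not pass. Wrn, a helicase gene, was at 8.34, 8.45, 8.46 and 8.67 on Lin+ and at 8.02, 8.35, 8.22 and 8.21 on HSC-enriched arrays, with only HSC-enriched replicate 2 above a Lin+ array. Brca2, which loads the recombinase, differed by 0.26 ± 0.15, Xrcc3 by 0.16 ± 0.19 and Palb2, the link between BRCA1 and BRCA2, by -0.02 ± 0.11. Palb2 lay close to the guide in both groups, at 5.25 and 5.24. Of 28 other recombination genes, 4 rose and 7 fell. Zswim7, which encodes a subunit of the Shu complex that helps the recombinase, had the largest rise (1.30) and Gen1, a resolvase of crossed strands, the largest fall (-1.59). Bard1 and Brip1, whose products bind BRCA1, were looked up after Brca1 was seen to fall, and both fell too, by 0.78 and 0.93. The HSC-enriched mean of Bard1, 5.16, was close to the guide, and that of Brip1 was 5.55.

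Of 6 genes of the Fanconi pathway, 3 fell and 0 rose, with a median of -0.44. Fanca, a subunit of the core complex, was at 6.35, 6.48, 6.80 and 6.54 on Lin+ and at 5.77, 5.99, 5.55 and 5.43 on HSC-enriched arrays. The groups were apart by 0.36, and the difference was -0.86 ± 0.15 (1.81-fold lower, adjusted p = 0.0013). Fancd2 and Fanci encode the pair of proteins that the core complex tags with ubiquitin at a crosslink. Fancd2 fell by 0.76 (SE 0.21, adjusted p = 0.022), but its groups overlapped, since HSC-enriched replicate 1 was at 6.66 and Lin+ replicate 3 at 6.61. Fanci fell by 0.54 (SE 0.15, adjusted p = 0.019). Both calls were narrow: Fancd2 did not pass without HSC-enriched replicate 2 (-0.71, adjusted p = 0.061), HSC-enriched replicate 3 (-0.66, 0.063), Lin+ replicate 2 (-0.73, 0.057) or HSC-enriched replicates 3 and 4 together (-0.63, 0.144). Fanci did not pass without HSC-enriched replicate 2 (-0.51, adjusted p = 0.052) or Lin+ replicate 4 (-0.45, 0.053), or with the replicate number as a block (-0.54, 0.062).

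The remaining Fanconi genes did not pass. Fancl, which encodes the ubiquitin ligase of the core complex, was at 6.84, 7.15, 6.68 and 6.97 on Lin+ and at 7.09, 6.88, 6.69 and 6.95 on HSC-enriched arrays. The 2 groups covered nearly the same range. Fancg, another core subunit, differed by -0.34 ± 0.18 and passed without HSC-enriched replicate 1 (-0.50, adjusted p = 0.040). Fancc, near background, differed by 0.23 ± 0.13. Among 12 other genes of the pathway 1 rose and 1 fell: Faap20 by 0.61 and Faap24, which like Faap20 encodes a partner of the core complex, by -0.78. The remaining 10 of these 12 did not pass. Falls in recombination and Fanconi genes went beside lower mitosis markers (19 of 19, on every HSC-enriched array below every Lin+ array), whose part in them was not tested.

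**Figure D3:**
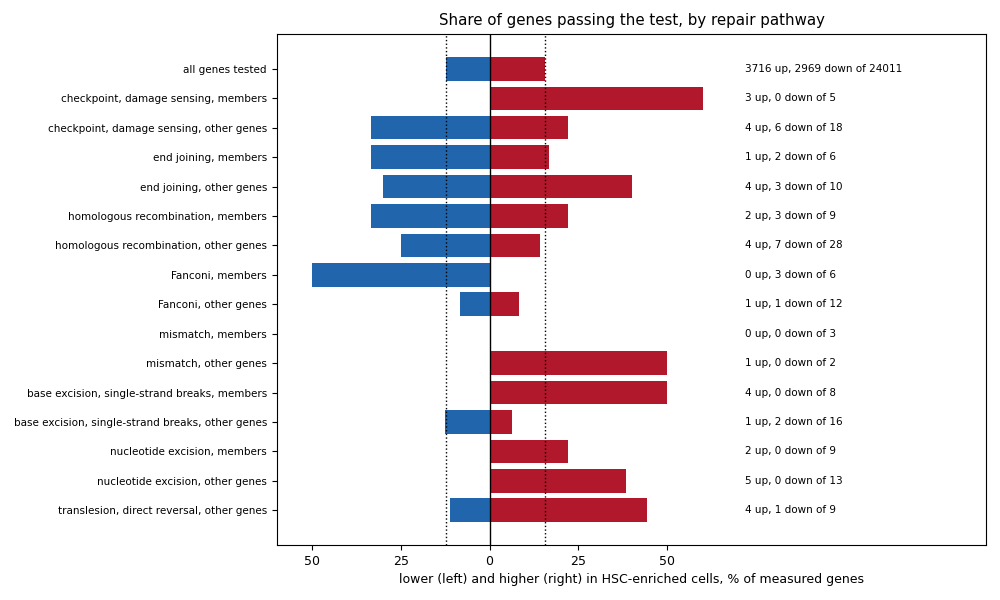
Percentage of measured genes that passed the test as lower (blue, left) and higher (red, right) in HSC-enriched cells, for the members and the other genes of each repair pathway, with dotted lines at the 12.4% and 15.5% of all genes. Checkpoint, base excision and nucleotide excision members are only on the right, and Fanconi members only on the left. Other genes of checkpoint, base excision and Fanconi are on both sides, and those of nucleotide excision only on the right. Among genes brighter than the median value, which the lines do not show, 21.5% were lower and 27.8% higher.

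None of the 3 mismatch repair members passed. Msh6, which with its partner recognises single mispairs, was at 7.80, 7.80, 7.58 and 8.04 on Lin+ and at 8.29, 8.14, 8.24 and 7.94 on HSC-enriched arrays. Lin+ replicate 4 lay above HSC-enriched replicate 4, and the difference was 0.35 ± 0.13 (adjusted p = 0.067). It passed in 5 alternatives, among them quantile normalization (0.41, adjusted p = 0.027) and leaving out HSC-enriched replicate 4 (0.42, adjusted p = 0.038) or Lin+ replicate 4 (0.43, adjusted p = 0.035). Msh3, which recognises small loops, and Pms2, the endonuclease subunit, differed by -0.10 ± 0.12 and -0.05 ± 0.10. Of 2 other measured genes, Mlh3 rose by 0.83 (adjusted p = 0.036) from a mean of 4.99, under the guide, to 5.82. It did not pass with arrays centred or with the replicate block, nor without any one of 6 single arrays (adjusted p = 0.051 to 0.095 over these alternatives).

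Of 8 genes of base excision and single-strand break repair, 4 rose, 4 did not pass and 0 fell, and the median was 0.40. Apex1, the endonuclease that cuts at the site left by a removed base, was at 8.41, 8.01, 7.91 and 8.0 on Lin+ and at 8.81, 8.83, 8.66 and 8.70 on HSC-enriched arrays. Lin+ replicate 1 was the nearest to the HSC-enriched arrays and still below each of them. The rise was 0.67 ± 0.13 (1.59-fold, adjusted p = 0.0022). Ogg1, the glycosylase for oxidised guanine, rose by 0.51 ± 0.12 and Lig3, the ligase that seals single-strand breaks, by 0.49 ± 0.12 (adjusted p = 0.0074 and 0.0084). Parp2, a sensor of strand breaks, rose by 0.43 ± 0.13 with an adjusted p of 0.033, and this was the weakest call among the 46 members. It did not pass in 8 of 17 alternatives (adjusted p = 0.052 to 0.145), which were array weights, the replicate block, leaving out any one of HSC-enriched replicates 1 and 4 and Lin+ replicates 1, 3 and 4, and leaving out HSC-enriched replicates 3 and 4 together.

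Parp1, the main sensor of strand breaks, did not pass: it was at 8.80, 8.65, 8.18 and 8.73 on Lin+ and at 9.04, 8.91, 8.92 and 8.71 on HSC-enriched arrays. Lin+ replicate 3 was low and HSC-enriched replicate 4 lay within the Lin+ range (0.30 ± 0.15, adjusted p = 0.177). Ung, the uracil glycosylase gene, differed by 0.37 ± 0.19, with HSC-enriched replicate 1 at 7.27 against 6.42 to 6.68 on the others. Polb, the gap-filling polymerase gene, and Xrcc1, the scaffold of single-strand break repair, differed by 0.19 ± 0.13 and -0.12 ± 0.10. Of 16 other genes of the pathway 1 rose and 2 fell, with a median of 0.09. Neil2, a glycosylase gene near background (4.45 to 5.10), rose by 0.65, but not without Lin+ replicate 3 (adjusted p = 0.061), Lin+ replicate 4 (0.062) or HSC-enriched replicates 3 and 4 (0.072). Neil3, a glycosylase gene known to be expressed in dividing cells, had the largest fall (-1.15).

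Of 9 genes of nucleotide excision repair, 2 rose (22.2%), 7 did not pass and 0 fell, and the median was 0.19. Among all genes 15.5% rose and 12.4% fell, and among the genes brighter than the median value 27.8% and 21.5%. Ddb2, which finds lesions made by ultraviolet light, was at 6.75, 7.00, 6.82 and 6.33 on Lin+ and at 7.44, 7.46, 7.70 and 7.63 on HSC-enriched arrays. The groups did not overlap, and the rise was 0.83 ± 0.15 (1.78-fold, adjusted p = 0.0016). Ddb1, which encodes its partner and was looked up after Ddb2 was seen, rose by 0.44. Ercc6, which encodes the CSB protein that acts where transcription stalls, rose by 0.67 ± 0.17 (adjusted p = 0.014), from 5.99 ± 0.21 to 6.66 ± 0.32, with HSC-enriched replicate 2 at 7.14 the highest.

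Among the 7 that did not pass, the differences ran from -0.17 to 0.25. Ercc3, a helicase subunit of the transcription factor TFIIH, was at 7.75, 8.08, 7.98 and 7.89 on Lin+ and at 7.93, 7.68, 7.88 and 7.55 on HSC-enriched arrays. HSC-enriched replicates 1 and 3 lay within the Lin+ range and replicates 2 and 4 below it (-0.17 ± 0.12). Ercc2, the other helicase of TFIIH, differed by 0.15 ± 0.16. The nuclease genes Ercc1, Ercc4 and Ercc5 differed by 0.09, 0.25 and 0.20. Xpa and Xpc, which verify and find distortions of the helix, differed by 0.19 and 0.00, all with standard errors of 0.13 to 0.17. Of 13 other genes of the pathway 5 rose and 0 fell, with Ccnh, the cyclin of the kinase in TFIIH, leading (0.91).

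**Figure D4:**
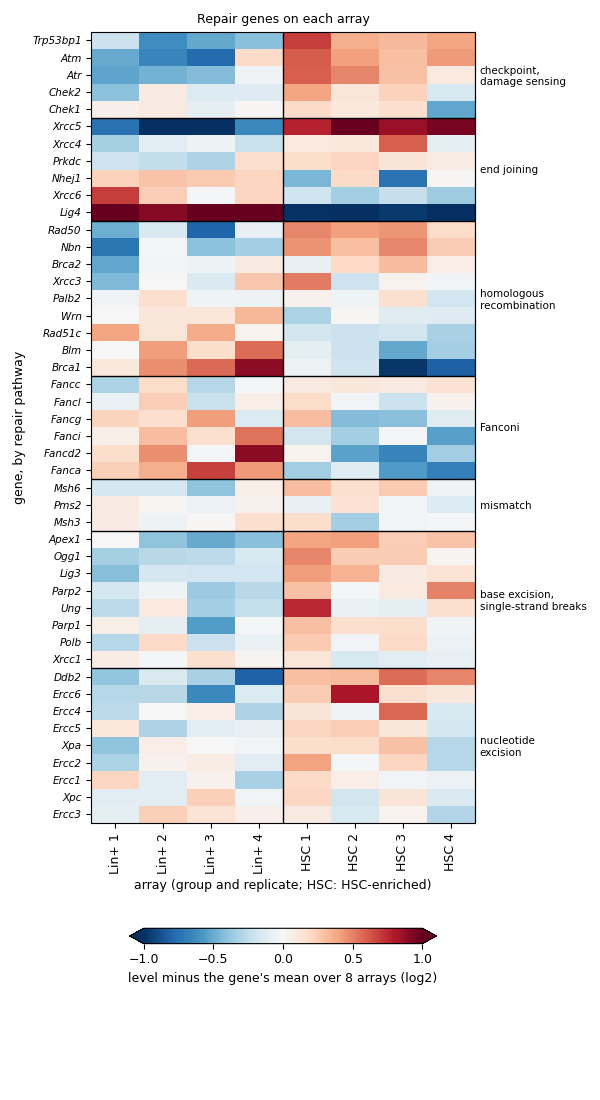
Level of each repair gene on each array after subtraction of its mean over 8 arrays (log2, colour limited to 1 in either direction), with genes in rows by pathway and arrays in columns. Xrcc5 and Lig4 separate the groups most strongly, and Brca1 and Fancd2 vary most visibly within the groups.

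Across pathways, replicate spread was alike in the 2 groups, with a median SD of 0.20 on Lin+ and 0.18 on HSC-enriched arrays for repair genes against 0.18 and 0.18 for all genes. Among the 46 measured members, none with a difference smaller than 0.43 in size passed. The largest difference among them that did not pass was 0.50 in size (Nhej1). Of the 20 genes that passed, 13 did so in each of the 17 alternatives, and these included Xrcc5, Lig4, Fanca, Trp53bp1, Rad50, Nbn, Apex1 and Ddb2. The mean of probe sets, counted among these alternatives, could hardly differ from the main fit, since only 4 probe sets had been left out as duplicates.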

How the data were processed

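Per the labels' protocols, RNA was amplified with the Ovation Pico system and hybridised to MouseGene ST arrays. The authors deposited log2 values for 24973 probe sets, and the submitters' processing notes name RMA and Partek with no version. The build, the probe set definition and any pooling are not given in the sources used, and no detection calls come with the values. The number of arrays limits the precision, beside the limits given with the results. A platform table gave 1 symbol for 24015 probe sets and none for 958. Through Entrez gene IDs, 23922 symbols were brought up to date with a RefSeq table (GRCm38.p6), and the brightest probe set of a gene was kept, which left 24011 genes. Array medians were 5.22 to 5.33.

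Groups were compared with limma 3.58.1 (R 4.3.3; lmFit and eBayes, 2 groups, no covariates, no filter), adjusted by Benjamini-Hochberg over all genes, two-sided, with a threshold of 0.05. Differences are HSC-enriched minus Lin+. The fit was tested on simulated data with independent noise and few changed genes. That was a check of the code, not of the calls given here. Figures were drawn with matplotlib 3.10.9.

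The members, the gene lists, the alternatives and the rule for named genes were chosen with earlier results of these data known. By that rule each member is named; values on every array are given for members that passed with a difference of at least 1 and, in each pathway, for the largest rise, the largest fall and the brightest member that did not pass. Of other repair genes, the largest rise and fall of each pathway are named. Of 117 other repair genes listed, 108 were measured, and the rest were not analysed here. Alternatives were median centring, quantile normalization, filters on 4 or more arrays at the median or the 40th percentile of all values, the mean of probe sets, a trend with robust estimates, array weights, the replicate block, each array left out and HSC-enriched replicates 3 and 4 left out. No batch or date is given in the labels.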

Additional observations from a re-analysis of the deposited data

Results flagged for a closer look

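Among 120 groups of 4 arrays screened (the 46 measured repair genes and the 14 others named for the largest rise or fall of a pathway, 2 groups each), 4 had an array far from the other 3 by Dixon's test, which marks about 1 in 20 groups by chance. Chek1 was at 7.01 on HSC-enriched replicate 4, below the next array at 7.64. Palb2 was at 5.41 on Lin+ replicate 2, above the next at 5.21. Lig3 was at 7.21 on Lin+ replicate 1, below the next at 7.44. Mlh3 was at 5.59 on Lin+ replicate 4, above the next at 4.84.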

How the results depend on the processing

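The 17 alternatives called 14 to 22 repair genes, against 20, and no called difference changed sign. With HSC-enriched replicates 3 and 4 left out, 14 of the 20 passed: 11 genes were higher and 3 lower (Lig4, Fanca and Fanci), where 12 and 8 were in all arrays. This fit has fewer samples, and its background fell to 13.1% higher and 9.96% lower. With a 2-fold minimum, 1 gene was higher and 2 lower. When each array was left out in turn, 11 to 13 genes were higher and 7 to 9 lower. In 6 genes that never passed, a difference close to 0 changed sign. Xpc was at -0.01 with centring and -0.03 with quantile normalization. Chek1 was at 0.02 with quantile normalization, 0.02 with array weights and 0.14 without HSC-enriched replicates 3 and 4, where Fancl was at 0.07 and Pms2 at 0.01. Over single arrays left out, Chek1 ran from -0.09 to 0.15, Palb2 from -0.07 to 0.04, Fancl from -0.08 to 0.07, Ercc1 from 0.00 to 0.18 and Xpc from -0.07 to 0.08. The cause was not tested. No pairing of the samples by replicate number was detected, which does not exclude one. Deviations of same-numbered samples correlated at -0.152 to 0.059, and 3 of 8 samples correlated best with their own number. The replicate block called 18 genes (11 higher, 7 lower). Other repair genes numbered 18 to 24 higher and 15 to 21 lower over single arrays left out, against 24 and 20. Without HSC-enriched replicates 3 and 4 together they numbered 18 higher and 15 lower.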

Other observations

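Genes that bypass or directly reverse damage lie outside the 7 pathways above. Of 9 measured, 4 were higher in HSC-enriched cells (44.4%) and 1 lower (11.1%), with a median difference of 0.32. Among all genes 15.5% were higher and 12.4% lower, and among the genes brighter than the median value 27.8% and 21.5%. Mgmt, which encodes the enzyme that removes alkyl groups from guanine, had the largest rise: it was at 5.77, 5.61, 6.09 and 5.49 on Lin+ and at 7.43, 7.54, 7.08 and 6.83 on HSC-enriched arrays. No array of one group reached the other, and the difference was 1.48 ± 0.18 (limma SE, adjusted p = 0.00015). Polh, a translesion polymerase gene, had the largest fall (-0.96, adjusted p = 0.0012), from 7.49 ± 0.25 to 6.53 ± 0.26. Poli, a related polymerase gene named after its value was seen, rose by 1.28. Polymerases of this family therefore changed in both directions.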
